A study of Homo sapiens with 3 samples.

Results

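Long non-coding RNAs (lncRNAs) were followed by RNA-seq in THP-1 cells during inhibition of the histone demethylase LSD1, and 104 of them were counted well enough to be described one by one. They were chosen by 3 criteria. A transcript had to carry the lncRNA type in GENCODE v44, it had to hold 50 or more counts in at least 1 of the 3 libraries, and its gene name had to differ from GAS5, ZFAS1, RMRP, RPPH1 and names that start with SNHG or MT-. Rows of the same gene name were then summed, which gave 104 genes from 107 transcript rows. Of 48306 lncRNA rows, 47699 remained after the excluded names, and 7153 of these, from 5433 genes, held any count. All 104 genes carried the gene type lncRNA as well. Since the members were selected on their counts in these libraries, their levels and ratios are a description and no test was made of them.

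THP-1 is an established human line of acute monocytic leukemia that carries the MLL-AF9 fusion. The untreated cells (0 h) were compared with cells given 0.2 µM GSK-LSD1, an inhibitor of LSD1, for 8 h and for 24 h, a treatment meant to induce monocytic differentiation. Every time point is 1 library of ribosome-depleted total RNA, mapped to hg38, and no vehicle or untreated sample of the later times was analysed here, so time in culture and treatment cannot be told apart. Differences between libraries therefore have no replicate check, they compare these 3 libraries rather than the conditions, and both comparisons against 0 h share the same 0 h library.

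LncRNAs are transcripts that are processed much like messenger RNA but carry no long open reading frame. Some stay in the nucleus and help to build nuclear bodies or to silence chromatin, some bind proteins or microRNAs in the cytoplasm, and some are the precursors from which microRNAs are cut. Many start close to the promoter of a coding gene on the opposite strand, and in leukemia several mark the myeloid state, among them the host of miR-223. LSD1 removes methyl groups from histone H3 lysine 4 and works at enhancers of myeloid genes together with the repressors GFI1 and GFI1B.

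The members include 4 genes named as hosts of microRNAs, and the mature microRNAs within them are shown because the host transcripts are the readout for these loci. The sequences come from RefSeq on GRCh38.p14, read 5′ to 3′, and the capitals mark the seed, bases 2 to 8, with which a microRNA pairs to its targets. No seed is shared between the arms shown. MIR142HG holds both arms of miR-142 on its own strand, at chr17:58331283-58331303 for the 5p arm and chr17:58331245-58331267 for the 3p arm. MIR223HG holds miR-223, MIR1915HG holds miR-1915, and MIR23AHG holds miR-23a, miR-27a and miR-24-2, of which the 3p arms are shown.
hsa-miR-142-5p: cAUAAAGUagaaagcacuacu
hsa-miR-142-3p: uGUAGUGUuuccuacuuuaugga
hsa-miR-223-5p: cGUGUAUUugacaagcugaguu
hsa-miR-223-3p: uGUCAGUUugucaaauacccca
hsa-miR-1915-5p: aCCUUGCCuugcugcccgggcc
hsa-miR-1915-3p: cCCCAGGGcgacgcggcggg
hsa-miR-23a-3p: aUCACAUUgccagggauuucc
hsa-miR-27a-3p: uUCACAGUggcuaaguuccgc
hsa-miR-24-3p: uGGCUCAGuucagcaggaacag

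Promoter windows are shown for ENSG00000259712, which rose more than 2-fold at both times, and for a pair of lower members, the leukocyte host gene MIR142HG and ENSG00000227706, the best counted of the members that fell past 2-fold. Each window covers 300 bases of hg38 on the strand of the transcript, with 250 bases before the annotated start in lower case and the first transcribed bases in capitals. The windows lie on the reverse strand, at chr15:52100474-52100773 for ENSG00000259712, chr17:58332474-58332773 for MIR142HG and chr6:67889120-67889419 for ENSG00000227706.
ENSG00000259712: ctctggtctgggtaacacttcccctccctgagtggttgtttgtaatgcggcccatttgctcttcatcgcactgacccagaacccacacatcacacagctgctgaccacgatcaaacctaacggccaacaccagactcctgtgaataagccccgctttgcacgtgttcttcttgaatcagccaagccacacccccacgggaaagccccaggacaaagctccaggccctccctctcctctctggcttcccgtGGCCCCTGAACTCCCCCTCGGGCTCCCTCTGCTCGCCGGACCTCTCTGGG
MIR142HG: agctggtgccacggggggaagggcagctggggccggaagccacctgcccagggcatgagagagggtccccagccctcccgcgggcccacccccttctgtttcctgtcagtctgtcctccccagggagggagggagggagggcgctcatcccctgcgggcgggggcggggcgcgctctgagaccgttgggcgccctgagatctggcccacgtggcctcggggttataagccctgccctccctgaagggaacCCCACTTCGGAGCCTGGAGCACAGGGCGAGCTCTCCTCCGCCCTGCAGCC
ENSG00000227706: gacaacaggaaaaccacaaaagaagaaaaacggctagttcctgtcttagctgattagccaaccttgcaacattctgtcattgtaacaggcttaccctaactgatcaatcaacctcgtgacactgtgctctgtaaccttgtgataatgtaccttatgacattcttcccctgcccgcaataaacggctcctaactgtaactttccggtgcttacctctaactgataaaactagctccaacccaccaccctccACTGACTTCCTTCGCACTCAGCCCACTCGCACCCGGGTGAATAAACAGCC

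The windows differed in base composition. G and C made up 71.7% of the MIR142HG window and 47.0% of the ENSG00000227706 window, against a median of 53.3% over the 104 members and 58.7% over 34943 RefSeq promoters of the same length. Both strands were searched for the letters GAGGAAG, a PU.1-type ETS motif, TTGCNNAA, a C/EBP motif, and AAATCA, the core of a GFI1-type motif. None of the 3 windows held any of them, which says only that these letters are not in these windows. Among the members, 15.4%, 14.4% and 10.6% of the windows held the respective motif, against 13.6%, 10.5% and 13.2% of the RefSeq promoters. The annotated start may not be the start used in these cells, which RNA-seq counts do not show.

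Library totals were 1475938 (0 h), 1310912 (8 h) and 1444011 (24 h) counts, scaled with respective TMM factors of 1.04, 0.961 and 1.0005. A count of 0 allows up to 3 counts, which is 1.96, 2.38 and 2.08 scaled CPM, counts scaled to the library size, in the respective library. The 8 h library stood apart in mitochondrial ribosomal RNA, with 9 counts of MT-RNR2 against 1661 at 0 h and 743 at 24 h. Coding genes are listed by protein accessions that the file does not pair with gene names, so the monocytic identity of the cells and the levels of coding neighbours were not checked here.

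The members held 1.10% of all counts at 0 h (95% Wilson score interval 1.08% to 1.12%), 0.925% at 8 h and 0.914% at 24 h. Their summed scaled level was lower after treatment, with a log2 ratio of -0.14 (95% exact counting interval -0.17 to -0.10) at 8 h and -0.21 (-0.24 to -0.18) at 24 h. The summed level of all 4218 features with 50 or more counts had log2 ratios of 0.12 and 0.06. For the 248 of these with transcript identifiers, which include the members' rows, the summed level was also lower, with -0.07 and -0.12. Intervals of ratios here and below are exact (Clopper-Pearson) and cover counting error of reads only. They do not include the spread between cultures, as each time point is 1 library. The reads carry no molecular identifiers and several can stem from 1 molecule, so the counting error of molecules may be larger. The sum is led by few members: NORAD, OIP5-AS1, MALAT1 and NEAT1 made up 32.1%, 28.3% and 25.4% of the members' counts in order of time. The typical member moved little, with a median log2 ratio of -0.02 at 8 h and -0.05 at 24 h, against 0.04 and -0.05 over all 4218 features. In a bulk library, fewer cells that express an RNA and less of it per cell cannot be told apart.

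A member is said here to rise or fall where its scaled count differed more than 2-fold between 2 libraries. At 8 h, 2 members rose and 5 fell against 0 h, beside 2.35% higher and 1.52% lower among the 4218 features. At 24 h, 4 rose and 6 fell against 0 h, beside 3.2% and 2.49%. Between 8 h and 24 h, 1 member rose and 0 fell, beside 0.569% and 0.166%. Most of the 4218 features carry protein accessions. Among the 248 with transcript identifiers, the members' rows included, 8 were higher and 17 lower past 2-fold at 8 h against 0 h. At 24 h against 0 h these were 8 and 21, and between 8 h and 24 h they were 4 and 0. Nothing is read from these counts about lncRNAs as a class, since the count minimum selects the members: the 14 members with under 50 counts at 0 h passed only through a later library, and the 22 with 50 or more only at 0 h passed only through the untreated one. In all, 59 members reached 50 counts in every library, and 1 of these 59, ENSG00000227706, passed 2-fold.

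**Figure D1:**
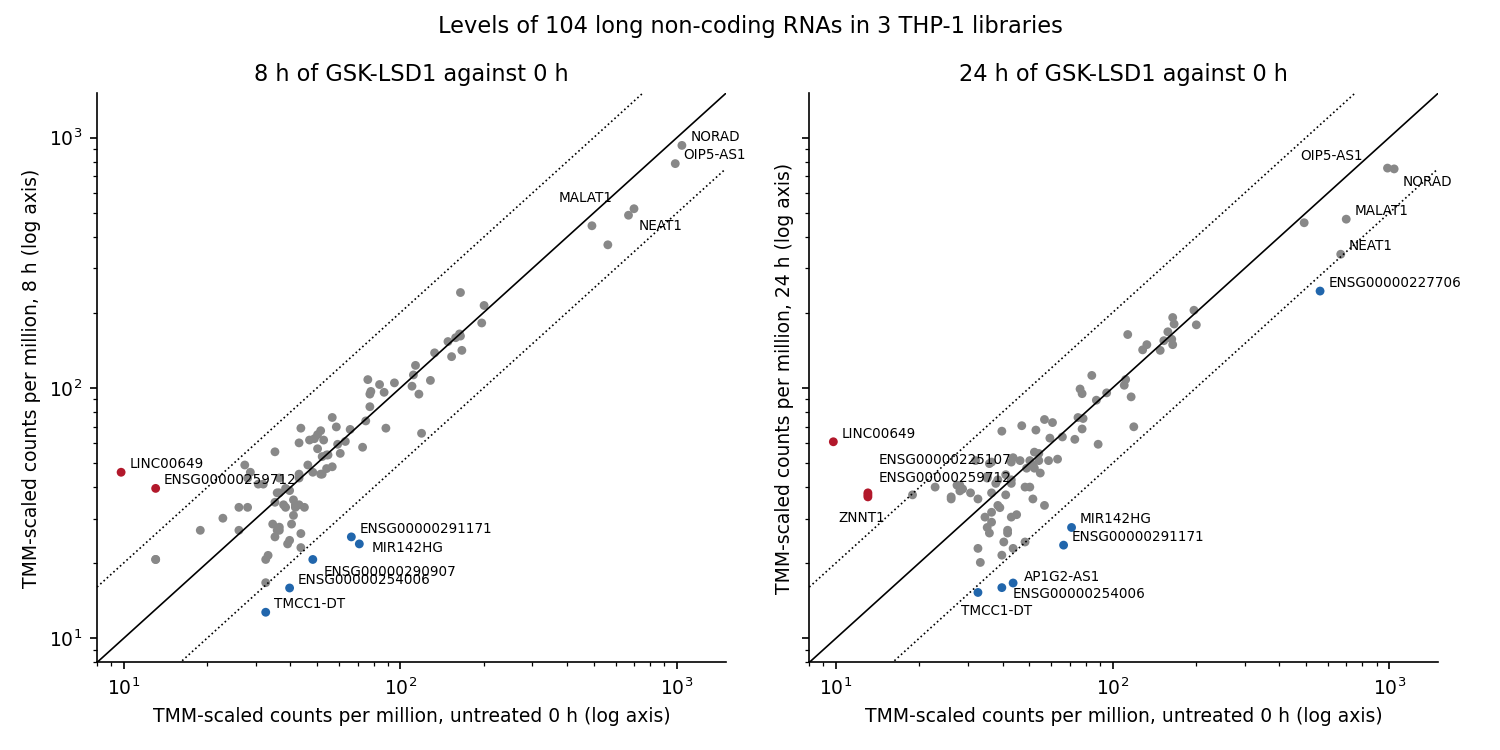
Each point is 1 of the 104 lncRNAs, with its TMM-scaled CPM at 0 h on the horizontal log axis and at 8 h (left) or 24 h (right) on the vertical log axis; the solid line marks equal levels and the dotted lines 2-fold, with red above and blue below. Most points lie between the dotted lines, LINC00649 lies farthest above them at both times (15 counts at 0 h against 58 and 88), and the most counted NORAD, OIP5-AS1, MALAT1 and NEAT1 lie below the line of equal levels.

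Of the rising members, LINC00649 changed most. It is a spliced transcript of 3 exon blocks on the forward strand of chromosome 21 (chr21:33931160-33977691, hg38), and 1.5% of its exon bases overlap an exon of the coding gene ENSG00000249209 on the other strand. The libraries held 15, 58 and 88 counts of it in order of time, so both treated libraries were far above the untreated one. The log2 ratio was 2.23 (1.40 to 3.16) at 8 h and 2.64 (1.84 to 3.54) at 24 h, a 6.23-fold difference, and this was the only member past 4-fold at either time. The other 19 annotated transcripts of LINC00649 held 3, 6 and 14 counts together, with a log2 ratio of 2.31 (0.47 to 4.75) at 24 h, in the same direction as the well-counted row. These counts are few, and such agreement was not general. Of the 13 members with 30 or more counts over other rows, which LINC00649 did not reach, 8 had the same sign at 24 h.

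The second member that was higher at both times was ENSG00000259712, whose 2 exon blocks on the reverse strand of chromosome 15 (chr15:52056675-52100523) share no base with another gene's exons. It runs antisense to MAPK6, which encodes an atypical MAP kinase. It had 20, 50 and 55 counts, and its level was reached by 8 h and was similar at 24 h. The log2 ratio was 1.61 (0.83 to 2.43) at 8 h and 1.55 (0.78 to 2.36) at 24 h, and between 8 h and 24 h it was -0.06 (-0.64 to 0.52).

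A further pair passed 2-fold only at 24 h. ENSG00000225107, 4 exon blocks on chromosome 2 with the nearest coding gene ZEB2 at 1048237 bp, had 20, 26 and 54 counts. ZNNT1, a single-exon lncRNA on chromosome 8 at 8249 bp from ZNF706, had 20, 26 and 53 counts. Both were thus intermediate at 8 h, with a log2 ratio of 0.66 (-0.24 to 1.58) each, and their log2 ratios at 24 h were 1.52 (0.76 to 2.34) and 1.49 (0.73 to 2.31). All 4 rising members had 20 counts or fewer at 0 h, and for LINC00649 alone the whole interval lay past 2-fold at either time. They passed the count minimum only through treated libraries, ENSG00000225107 and ZNNT1 only at 24 h, which by itself favours high ratios.

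Other members with a higher count at 24 h stayed under 2-fold, among them CEBPA-DT and ENSG00000287064. HEIH, known from hepatocellular carcinoma as a partner of the Polycomb protein EZH2, had 29, 34 and 54 counts, and at 24 h its log2 ratio was 0.98 (0.31 to 1.69). However, 73.6% of its exon bases overlap LINC00847, and it is not given how such reads were assigned. ENSG00000234147 on chromosome 6 had 35, 38 and 58 counts with a log2 ratio of 0.82 (0.19 to 1.46) at 24 h. LINC01963 near XRCC5 had 72, 78 and 102 counts with 0.59 (0.14 to 1.05). For these 3 lncRNAs the 24 h library was the highest and the interval lay above 0. HEIH and ENSG00000234147 passed the count minimum only through that library, which by itself favours high ratios at 24 h.

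Another set was highest at 8 h or had intervals that include 0 at 24 h. ENSG00000272405, which overlaps BCAN on the other strand, had 42, 62 and 59 counts, with a log2 ratio of 0.85 (0.26 to 1.45) at 8 h and 0.58 (-0.02 to 1.18) at 24 h. ENSG00000268362, within ZNF254, had 44, 58 and 57 counts, with 0.68 (0.09 to 1.28) at 8 h. HCG11, an lncRNA near the histone gene cluster and the extended HLA region of chromosome 6, had 43, 42 and 59 counts, with 0.54 (-0.05 to 1.15) at 24 h. At this depth the interval of the 24 h ratio spanned a median of 1.02 log2 units over the members.

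**Figure D2:**
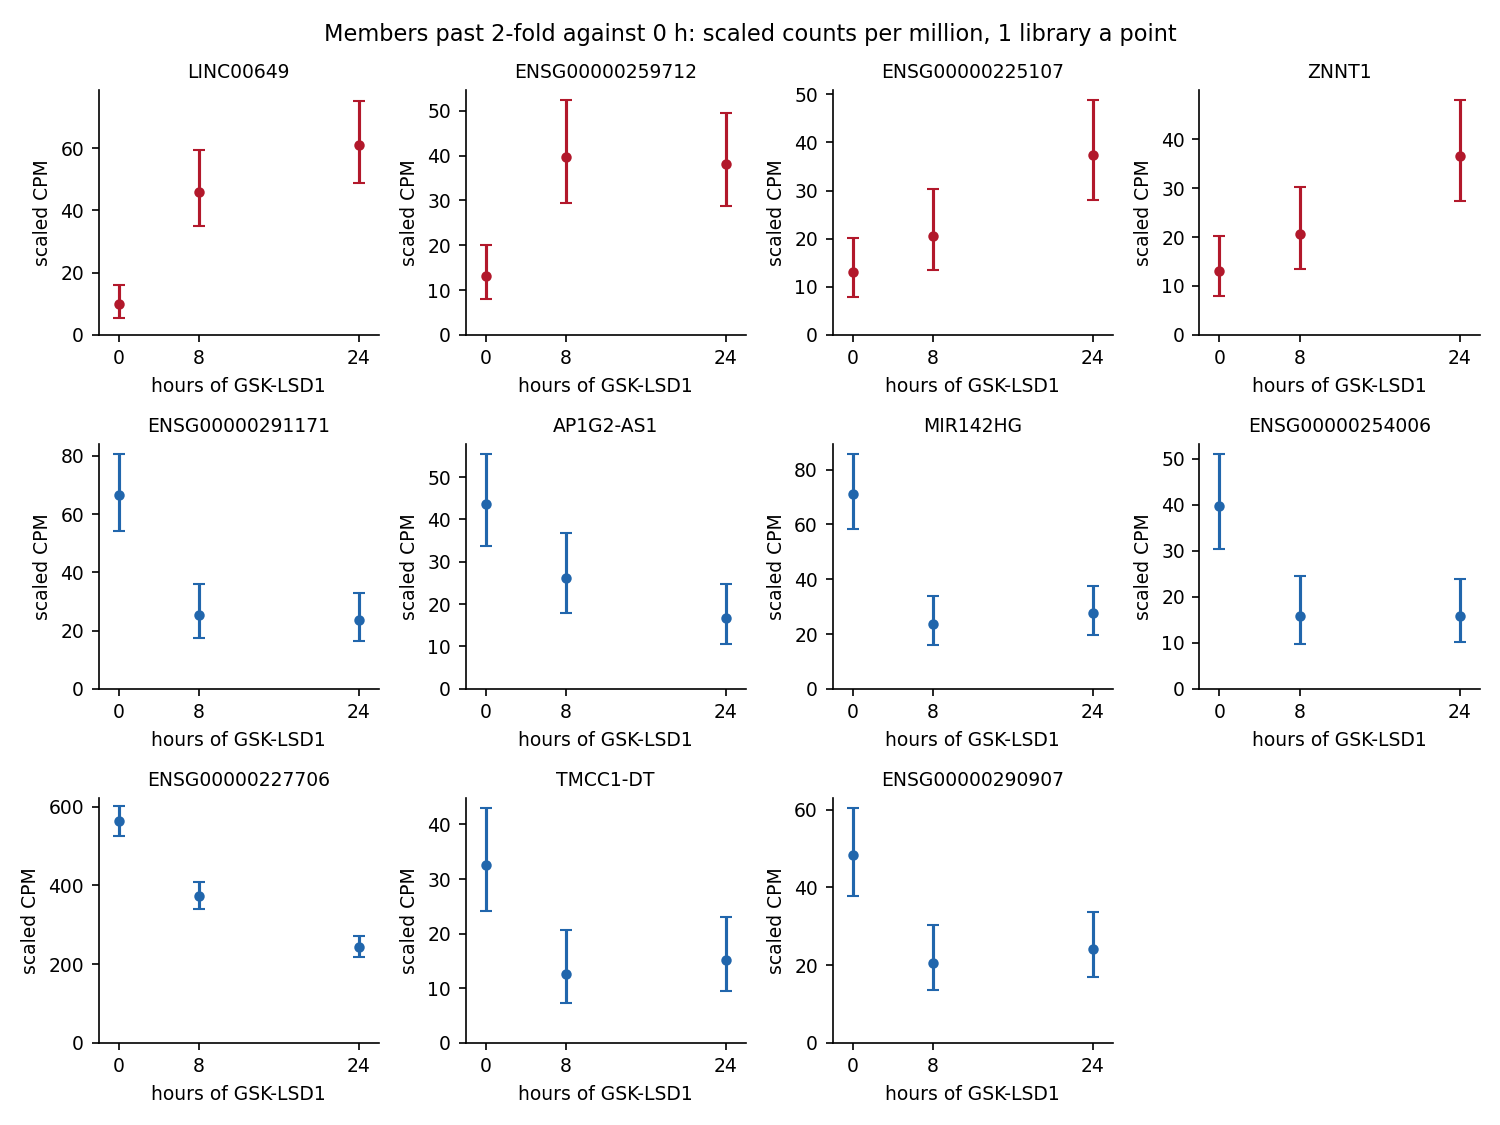
TMM-scaled CPM of the 11 members that passed 2-fold against 0 h at 8 h, at 24 h or at both, against hours of GSK-LSD1; each point is 1 library, bars are 95% exact Poisson intervals, and each vertical axis starts at 0 with its own scale. LINC00649, ENSG00000225107 and ZNNT1 (red) are highest at 24 h, whereas MIR142HG, TMCC1-DT and ENSG00000291171 (blue) are already low at 8 h.

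Among the members that fell, MIR142HG is the one with the best known role. It is the host of miR-142, a microRNA of blood cells, and lies on the reverse strand of chromosome 17 as 1 exon (chr17:58330879-58332523), with 5.8% of its bases shared with exons of MIR142 and TSPOAP1-AS1. The untreated library had 109 counts, the 8 h library 30 and the 24 h library 40. Both treated libraries were thus low, with a log2 ratio of -1.58 (-2.21 to -0.98) at 8 h and -1.36 (-1.92 to -0.82) at 24 h, and the 24 h against 8 h ratio of 0.22 (-0.50 to 0.95) does not separate them. The counts are of the host transcript; the mature arms printed above are too short for this library type and were not measured.

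ENSG00000227706 fell in steps. Its 3 counted rows on chromosome 6 (chr6:67881032-67889250, reverse strand) held 863, 470 and 352 counts together, and the nearest coding gene, ADGRB3, is 746032 bp away. The log2 ratio was -0.59 (-0.76 to -0.43) at 8 h and -1.21 (-1.39 to -1.03) at 24 h, with -0.61 (-0.82 to -0.41) between 8 h and 24 h. It is the only faller whose whole interval lay past 2-fold. The 19, 12 and 17 counts on the single other counted row of this gene gave -0.07 (-1.11 to 0.95) at 24 h, an interval that includes both no change and a fall of 2-fold.

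The other fallers were less well counted. Like MIR142HG, they passed the count minimum only through the 0 h library, which by itself favours low ratios. ENSG00000291171 on chromosome 12, which shares 21.0% of its exon bases with the pseudogene EP400P1 and ENSG00000256804, had 102, 32 and 34 counts, with log2 ratios of -1.39 (-2.01 to -0.80) and -1.50 (-2.10 to -0.93). ENSG00000254006, 2499 bp from CYP7B1 on chromosome 8, had 61, 20 and 23 counts, with -1.33 (-2.13 to -0.58) and -1.32 (-2.08 to -0.61). Both had reached their low level at 8 h. AP1G2-AS1 had 67, 33 and 24 counts, with -0.74 (-1.39 to -0.12) at 8 h and -1.39 (-2.13 to -0.70) at 24 h. As 83.3% of its exon bases lie over exons of AP1G2 and JPH4 on the other strand and the strand setting is not given, its reads and those of these genes cannot be told apart.

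TMCC1-DT, which starts 171 bp from TMCC1 and is transcribed away from it, had 50, 16 and 22 counts, with log2 ratios of -1.36 (-2.27 to -0.52) and -1.10 (-1.89 to -0.35). It sits exactly at the count minimum. Its other rows held 27, 11 and 21 counts, with -1.01 (-2.17 to 0.05) at 8 h and -0.28 (-1.17 to 0.60) at 24 h. ENSG00000290907, which lies within ANKRD18A and shares 36.2% of its exon bases with the pseudogene SNX18P3, had 74, 26 and 35 counts. It fell at 8 h, with -1.23 (-1.93 to -0.56), and was at -0.99 (-1.62 to -0.39) at 24 h.

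Close to the 2-fold line at 24 h were LINC01305, near the SP9 gene on chromosome 2, with 67, 29 and 33 counts and a ratio of -0.93 on the log2 scale (-1.58 to -0.31), and LINC00205, 139 bp from POFUT2, with 61, 31 and 31 counts and -0.89 (-1.56 to -0.24). Both were at a similar level in the treated libraries. ENSG00000284719 on chromosome 1 had 87, 61 and 49 counts and -0.74 (-1.28 to -0.22).

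The nuclear lncRNAs with the most counts were lower in both treated libraries. NEAT1 is the scaffold of paraspeckles and MALAT1 is a resident of nuclear speckles, and they lie close together on chromosome 11. NEAT1 had 1025, 617 and 494 counts, with log2 ratios of -0.45 (-0.60 to -0.30) at 8 h and -0.97 (-1.12 to -0.81) at 24 h. MALAT1 had 1073, 655 and 682 counts, with -0.43 (-0.57 to -0.29) and -0.57 (-0.71 to -0.43). The ratios of both were thus similar at 8 h, and that of NEAT1 went lower by 24 h, with -0.52 (-0.69 to -0.34) between 8 h and 24 h against -0.14 (-0.30 to 0.02) for MALAT1. Exons of the antisense gene TALAM1 and 3 other genes cover 83.7% of MALAT1, so without the strand setting its counts may include antisense reads. KCNQ1OT1, the imprinted RNA of the KCNQ1 locus, had 235, 168 and 223 counts, with -0.20 (-0.49 to 0.09) and 0.01 (-0.26 to 0.28). No nuclear member passed 2-fold. Of the 9 genes listed as nuclear or architectural, 5 had a count and these 3 were members.

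The most counted cytoplasmic regulators were lower as well. Their ratios were smaller in size than those of NEAT1 and MALAT1, but at 24 h their intervals overlapped that of MALAT1. At 24 h they were larger in size than that of KCNQ1OT1, so no contrast between nuclear and cytoplasmic members is drawn. NORAD, which binds PUMILIO proteins and guards genome stability, had the most counts of all members, with 1599, 1173 and 1083. Its log2 ratio was -0.16 (-0.27 to -0.05) at 8 h and -0.48 (-0.59 to -0.36) at 24 h. OIP5-AS1, also called Cyrano and known for directing the decay of miR-7, had 1513, 992 and 1091 counts, with -0.33 (-0.44 to -0.21) and -0.38 (-0.50 to -0.27). Of its exon bases, 99.4% lie within the bounds of the coding gene ENSG00000285920 on the same strand, so its counts may include reads of that gene. All 4 of these highly counted lncRNAs were highest at 0 h, and their intervals lay below 0 at both times, with none past 2-fold. NORAD and NEAT1 are also the 2 members on a list of 13 lncRNAs linked to p53 and stress, of which 8 had a count.

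**Figure D3:**
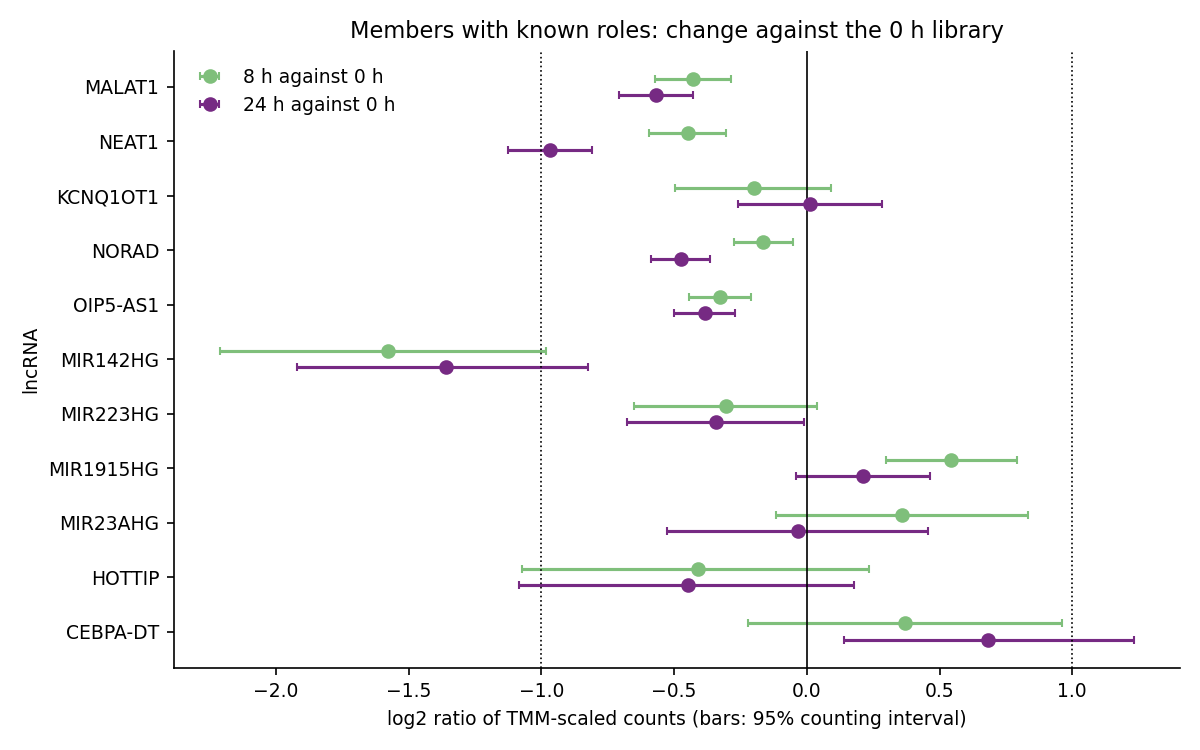
Log2 ratio of TMM-scaled counts at 8 h (green) and 24 h (purple) against 0 h for 11 members with known roles; points are ratios of 1 library to another, bars are 95% exact counting intervals, and dotted lines mark 2-fold. MIR142HG lies past 2-fold at both times, the 4 most counted lncRNAs lie between -0.16 and -0.97, and CEBPA-DT (0.68 at 24 h) lies on the other side.

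The remaining microRNA hosts did not follow MIR142HG past 2-fold. MIR223HG, the host of the granulocyte and monocyte microRNA miR-223, had 179, 119 and 133 counts, with log2 ratios of -0.31 (-0.65 to 0.04) and -0.34 (-0.68 to -0.01). MIR1915HG was highest at 8 h, with 253, 303 and 276 counts and log2 ratios of 0.54 (0.30 to 0.79) and 0.21 (-0.04 to 0.46). MIR23AHG, the precursor of the miR-23a, miR-27a and miR-24 cluster, had 75, 79 and 69 counts, with 0.36 (-0.12 to 0.83) and -0.03 (-0.53 to 0.46). The hosts were therefore spread on both sides of 0 at 8 h. DLEU1, listed with the hosts as the neighbour of the miR-15a and miR-16-1 locus, had 56, 34 and 42 counts, with -0.44 (-1.10 to 0.20) and -0.33 (-0.94 to 0.27). Of 88 genes on that list 40 had a count, and these 5 were members.

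Of the 18 lncRNAs listed as myeloid or innate immune, 14 had a count and 2, MIR223HG and CEBPA-DT, were members. CEBPA-DT starts 323 bp from CEBPA, the gene of a transcription factor required for granulocyte and monocyte development, and it had 49, 52 and 74 counts. The log2 ratio of CEBPA-DT was 0.37 (-0.22 to 0.96) at 8 h and 0.68 (0.14 to 1.23) at 24 h. The other 12 with a count had under 30 counts in every library when summed over their rows, from MIR4435-2HG with 19, 13 and 23 and LINC00996 with 16, 2 and 9 down to MIR155HG with 1, 1 and 0. Among 16 listed lncRNAs of the HOX clusters and MEIS1, 5 had a count and only HOTTIP, at the 5′ end of the HOXA cluster, was a member, with 55, 34 and 38 counts and log2 ratios of -0.41 (-1.07 to 0.23) and -0.45 (-1.08 to 0.18). HOTAIRM1, at the other end of that cluster, had 0, 1 and 0 counts.

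No member came from the list of 13 MYC-linked and proliferation lncRNAs, 8 of which had a count. PVT1, the neighbour of MYC, had 76, 68 and 107 counts, but these were spread over 176 annotated transcripts, of which the best had 13 in a library. The minimum per transcript thus left out genes whose reads were divided among many isoforms, such as PVT1 and FTX, which had 81, 43 and 79 counts over 72 transcripts.

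The divergent lncRNAs, named for the coding gene whose promoter region they share, had a median log2 ratio of -0.39 at 8 h and -0.52 at 24 h over 7 members, and 6 of 7 were below 0 at 24 h, beside 55.0% of all 4218 features. Of these 7, 4 (CTBP1-DT, TMCC1-DT, NIPBL-DT and TMEM161B-DT) passed the count minimum only at 0 h, which by itself favours low ratios, so nothing is read from these medians. Beside TMCC1-DT, ZMPSTE24-DT had 183, 83 and 101 counts, with -0.86 and -0.77, and NIPBL-DT had 64, 42 and 38, with -0.32 and -0.67. The exception at 24 h was CEBPA-DT. C2orf74-DT, 118 bp from C2orf74, had 79, 85 and 52 counts and the lowest ratio of all members between 8 h and 24 h, -0.91 (-1.43 to -0.39). TMEM161B-DT had 60, 30 and 48 counts, with -0.72 (-1.40 to -0.06) at 8 h and -0.24 (-0.81 to 0.34) at 24 h. The classes are small, and all 104 members had medians of -0.02 and -0.05.

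The 19 antisense members had a median log2 ratio of 0.02 at 8 h and -0.07 at 24 h, and 1 of them, AP1G2-AS1, passed 2-fold. The best counted of them besides OIP5-AS1 was MAP3K5-AS2, with 308, 269 and 258 counts, and its log2 ratio at 24 h was -0.17 (-0.41 to 0.07). The 9 LINC-numbered members had medians of 0.28 and 0.03 and ranged at 24 h from -0.93 for LINC01305 to 2.64 for LINC00649. The 49 members without a gene symbol had medians of -0.03 and 0.02, and 2 of them rose and 3 fell at 24 h.

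**Figure D4:**
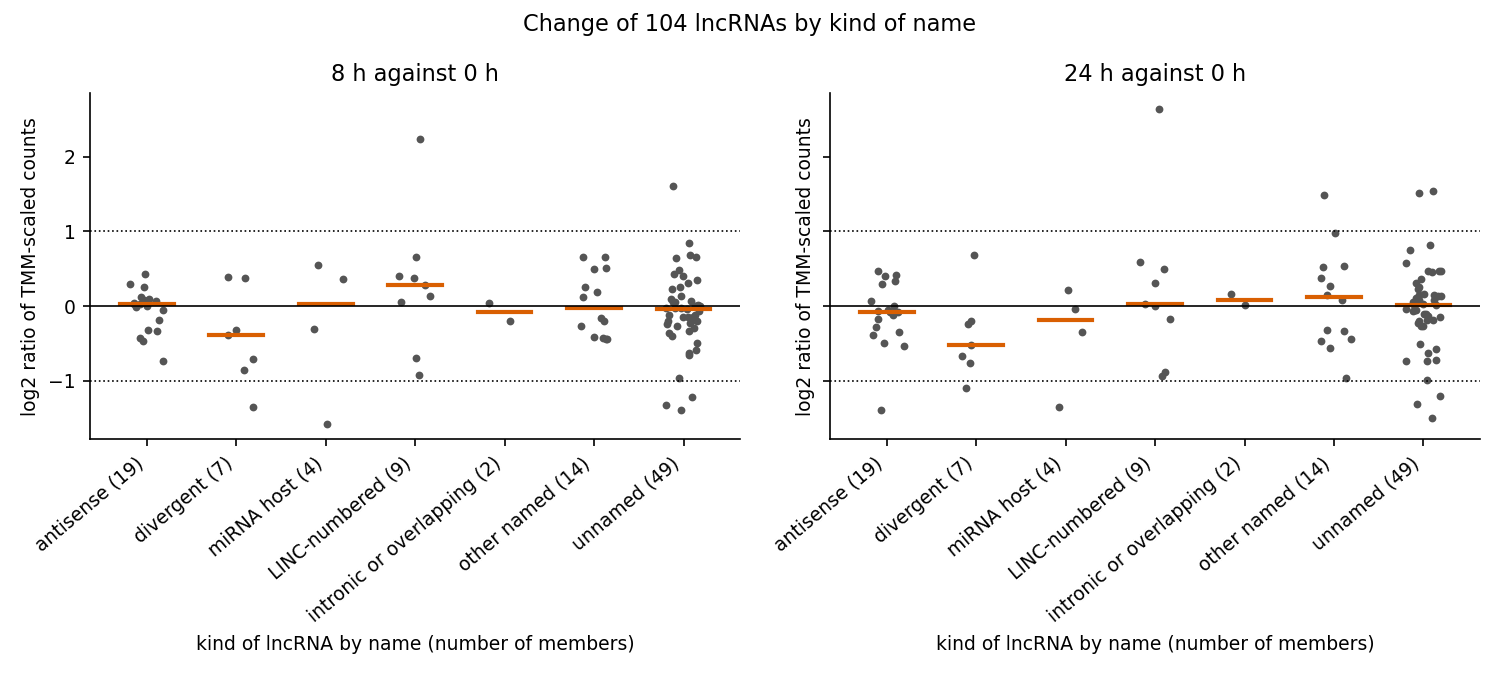
Log2 ratio of TMM-scaled counts against 0 h at 8 h (left) and 24 h (right), 1 point per lncRNA, by the kind of name it carries (number of members in brackets); orange bars are medians and dotted lines mark 2-fold. LINC00649 is the highest point at both times, and 4 of the 7 divergent members (medians -0.39 and -0.52) passed the count minimum only through the 0 h library.

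Several well-counted members differed little. ENSG00000260401 had 756, 560 and 660 counts, with a log2 ratio of -0.11 (-0.26 to 0.04) at 24 h, but all of its exon bases lie in exons of P2RY2 on the same strand. ENSG00000269243, antisense to RAB8A and HSH2D, had 302, 229 and 295 counts, with 0.05 (-0.18 to 0.29) at 24 h. ENSG00000268205, a single-exon transcript 10236 bp from ZNF460, had 256, 178 and 260 counts, with 0.11 (-0.15 to 0.36) at 24 h. The bounds of these 3 ratios at 24 h lie inside 2-fold on both sides.

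Between 8 h and 24 h, a comparison that shares a library with each of the others, ENSG00000290450 was the only member past 2-fold. It had 50, 21 and 52 counts, so it was low at 8 h alone, with a log2 ratio of -0.97 (-1.78 to -0.21) at 8 h against 0 h and 1.11 (0.35 to 1.92) at 24 h against 8 h, and 38.5% of its exon bases overlap LRRC37BP1 and ENSG00000214719. The 8 h library is also the one with few mitochondrial ribosomal counts, and whether the 2 are linked was not tested. ENSG00000287064 on chromosome 1 had 61, 49 and 97 counts, with 0.79 (0.28 to 1.31) between 8 h and 24 h. Of the 104 members, 90 had an interval that includes 0 in this comparison, against 79 at 8 h and 71 at 24 h against 0 h. The same count was not made over all features, so nothing is read from these numbers.

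Over both treated libraries, 36 members were above their 0 h level at both times and 41 below it at both, while 13 were lower at 8 h and higher at 24 h, and 14 the reverse. Taken by time, 50 of the 104 members lay above 0 at 8 h and 49 at 24 h, beside 2315 and 1900 of all 4218 features. As both ratios share the 0 h library, a high or low count there moves both. These splits also depend on the scaling, since total counts in place of TMM shift the median of all features by -0.11 log2 units at 8 h, and 34 members instead of 50 then lie above 0. Relative to the median of all features, a difference that no scaling can alter, the median member was at -0.06 at 8 h and 0.00 at 24 h.

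The members are a mixed set in structure. They lie on 22 chromosomes, 43.3% consist of 1 exon block, and their exon bases range from 337 to 205012, with a median of 3135.5. Per length, the highest mean level was that of RNASE2CP, 395 CPM per kb, a short transcript whose gene is related to RNASE2 and whose reads may be shared with its relatives, and the lowest was that of HELLPAR, 0.46 CPM per kb. NORAD had 168, OIP5-AS1 94.9, MALAT1 54.0 and NEAT1 22.0 CPM per kb, so that NEAT1 was near the members' median of 18.9 per length. The NEAT1 value uses the length of its 1 counted row. Its 8 other annotated rows held 0 counts, so reads of shorter isoforms cannot be told apart. Exons of other genes touch 60 members, in 11 of them over more than 50% of the exon bases, and 10 lie wholly within a coding gene on the same strand. The 44 members free of exon overlap had a summed log2 ratio of -0.01 (-0.07 to 0.04) at 8 h and -0.09 (-0.14 to -0.03) at 24 h, against -0.21 (-0.26 to -0.17) and -0.29 (-0.33 to -0.25) for the 60 with overlap. The median log2 ratios lay closer, at 0.03 and 0.03 for the 44 and -0.09 and -0.09 for the 60. The sum of the 60 includes the highly counted OIP5-AS1, MALAT1, NEAT1 and ENSG00000227706. Exons of other genes cover 3.7%, 83.7%, 2.1% and 5.2% of their respective bases. The part of shared reads in these sums was not tested.

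Near the count minimum, membership was decided by few reads. Just inside were TMCC1-DT with 50, 16 and 22 counts, ENSG00000255455 with 50, 26 and 33, and ENSG00000290993 with 51, 27 and 29. Just outside were GSEC with 49, 41 and 45 counts, ENSG00000268575 with 49, 31 and 33, and LINC00294 with 31, 32 and 49. The lncRNA genes outside the members, 5329 with any count, held 19783, 17070 and 19848 counts together, with summed log2 ratios of 0.07 (0.04 to 0.10) at 8 h and 0.09 (0.06 to 0.12) at 24 h. At 24 h their sum was above its 0 h level under all 5 scalings tried, but at 8 h its direction depended on the scaling, with -0.0026 (-0.03 to 0.03) under DESeq2 size factors and -0.04 (-0.07 to -0.01) under total counts.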

How the data were processed

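The data are 3 RNA-seq libraries of THP-1 cells, 1 per time point. The authors processed the reads with Seq2science against hg38 (STAR and fastp stand in the submitters' processing notes) and deposited raw counts of reads per feature. Which counting program, gene models and strand option were used, and how reads on overlapping features were assigned, is not given in the sources used here. Groups came from the sample labels, and 0 columns were left unassigned. Transcript identifiers were matched to GENCODE v44 without version. Of the members' rows, 88 had the same version and 19 another.

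Counts were divided by TMM effective library sizes over all features (edgeR 4.0.16, R 4.3.3). Ratios used no prior count, and a count at or under 3 was set to 3. The interval of a ratio came from the exact 95% (Clopper-Pearson) bounds of 1 count's share in the pair's total. A single library per time point allows no test, and no p-value is given. Scripts were tested on simulated data (Python 3.11.15, numpy 2.4.6, pandas 2.3.3, scipy 1.17.1, matplotlib 3.10.9). DESeq2 1.42.0 gave alternative size factors.

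The members and lists were chosen with earlier results of these data known. Members were named if they had the 10 highest summed counts, the 10 largest rises or falls at 24 h among those with the same direction at 8 h, the 5 largest rises or falls at 8 h or between 8 h and 24 h, or stood on a list. ZMPSTE24-DT, NIPBL-DT, RNASE2CP and HELLPAR were chosen after their values were seen. Promoter windows were read from hg38 for all 104 members, 36 of which also have a RefSeq promoter entry. The window of LINC00649 is not reported here.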

Additional observations from a re-analysis of the deposited data

How the results depend on the processing

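No paired analysis was possible because each time point has 1 library, and for the same reason no replicate could be left out. Counts of members past 2-fold are given below as higher and lower, in the order 8 h against 0 h, 24 h against 0 h and 24 h against 8 h. A minimum of 10 counts gave 64 and 73, 81 and 84, and 63 and 49, and any count 211 and 111, 202 and 145, and 127 and 133, where more genes are tested on fewer counts. A minimum of 100 counts gave 0 and 2, 0 and 3, and 0 and 0, and a mean of 50 counts 1 and 2, 1 and 3, and 0 and 0. Members without exon overlap gave 1 and 2, 2 and 2, and 0 and 0. A 4-fold threshold left 1 and 0, 1 and 0, and 0 and 0, and an interval wholly past 2-fold 1 and 0, 1 and 1, and 0 and 0. The counts stayed within 1.5 times the reported ones under DESeq2 size factors, total counts, all rows of a gene, rows of the same version and a prior count of 2.

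The summed log2 ratio at 8 h was -0.21 with DESeq2 size factors, -0.25 with total counts with or without mitochondrial features, -0.0949 without MALAT1 and NEAT1, and -0.0143 over members without exon overlap. At 24 h it was -0.26 with total counts, -0.27 without mitochondrial features, -0.14 without MALAT1 and NEAT1, and -0.0856 without exon overlap. Between 8 h and 24 h it reversed to 0.0097 with DESeq2 size factors and was -0.0172 with total counts, -0.0162 with these less the mitochondrial features and -0.0272 with TMM over features with 10 or more counts, so its direction depends on the scaling; the cause was not tested. The last TMM setting, the sum without exon overlap and the scalings of the sum over lncRNAs outside the members were chosen after seeing the data. Of 585 alternative values of single named members, 583 stayed within the counting interval and 2 moved beyond it (NORAD at 8 h, -0.28 under total counts). None past 2-fold changed sign, but 22 values of 8 ratios close to 0 did, such as KCNQ1OT1 at 24 h (-0.0441 under total counts) and OIP5-AS1 between 8 h and 24 h (0.0246 with DESeq2 size factors); the largest of these ratios was 0.0883 as reported. LINC01305 and ENSG00000290450 at 8 h, and NEAT1 and ENSG00000290907 at 24 h, crossed 2-fold under total counts, and HEIH at 24 h under TMM over features with 10 or more counts.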
